A study of Mus musculus with 9 samples.

Results

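Astrocyte identity and transport genes were followed in RNA sequenced in bulk from the prelimbic cortex of mice, part of the medial prefrontal cortex. The set holds 10 genes chosen by symbol, Gfap, Aqp4, Slc1a2, Slc1a3, Slc4a4, Glul, Aldh1l1, Gja1, Gjb6 and S100b, of 55335 lines in the count table. All 10 were present once and all 10 were among the 21765 genes with enough counts to be tested. Tissue was collected 14 days after surgery from 9 mice, 3 per group. SNI/R-HNK mice had spared nerve injury, a model of neuropathic pain in which part of the sciatic nerve is cut, and received R-HNK, a hydroxynorketamine that is a metabolite of ketamine, at 10 mg/kg. SNI/saline mice had the same injury and received saline, and Sham/saline mice had sham surgery and saline. The question is how nerve injury, and R-HNK on top of it, are reflected in astrocyte transcripts. The labels used here do not give strain, sex, age or the time of dosing, and the p-values measure the spread between these mice.

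Astrocytes are the glial cells that surround synapses and blood vessels. They take up the glutamate released by neurons, turn it into glutamine and hand it back, buffer potassium, water and acid through membranes that face vessels, and are joined to one another by gap junctions. In response to damage or inflammation they can become reactive, a state classically recognised by more of the filament protein encoded by Gfap. In healthy cortex Gfap is low in most grey matter astrocytes and higher next to the pial surface and in white matter.

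The promoters of 5 members are shown, from the 6 whose SNI/saline and Sham/saline libraries did not overlap. Gfap, Slc1a3, Gja1 and Slc4a4 were lower in every SNI/saline than in every Sham/saline library, and Gjb6 was higher. Aqp4 was also lower in this way, and its promoter is not shown. Of all genes tested 21.7% did not overlap between these groups, 10.9% in each direction. Each window runs 5′ to 3′ on the gene's own strand from 250 bases before to 50 bases after the annotated start in RefSeq on GRCm38.p6. The windows are chr11:102897151-102897450 on the minus strand for Gfap, chr15:8710758-8711057 on the minus strand for Slc1a3, chr10:56377050-56377349 on the plus strand for Gja1, chr5:88887010-88887309 on the plus strand for Slc4a4 (the first of 2 annotated starts) and chr14:57133562-57133861 on the minus strand for Gjb6. Capitals mark matches to any of 6 motifs searched on both strands.
Gfap: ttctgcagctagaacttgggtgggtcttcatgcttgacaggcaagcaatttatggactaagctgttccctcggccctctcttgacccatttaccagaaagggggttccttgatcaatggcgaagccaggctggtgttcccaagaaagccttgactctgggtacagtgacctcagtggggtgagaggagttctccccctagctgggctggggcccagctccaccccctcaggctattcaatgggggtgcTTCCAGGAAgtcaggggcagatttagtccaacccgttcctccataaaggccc
Slc1a3: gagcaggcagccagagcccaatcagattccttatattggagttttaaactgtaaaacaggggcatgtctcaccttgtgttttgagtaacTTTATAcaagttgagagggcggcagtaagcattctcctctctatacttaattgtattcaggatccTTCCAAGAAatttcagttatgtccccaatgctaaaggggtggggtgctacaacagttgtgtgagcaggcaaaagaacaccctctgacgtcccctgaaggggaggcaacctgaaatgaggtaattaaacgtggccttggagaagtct
Gja1: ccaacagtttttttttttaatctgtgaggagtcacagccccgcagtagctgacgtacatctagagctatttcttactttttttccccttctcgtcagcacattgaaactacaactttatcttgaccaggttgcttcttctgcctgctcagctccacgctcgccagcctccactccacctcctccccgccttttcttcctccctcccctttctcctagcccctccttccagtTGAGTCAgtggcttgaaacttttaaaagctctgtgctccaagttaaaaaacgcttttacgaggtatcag
Slc4a4: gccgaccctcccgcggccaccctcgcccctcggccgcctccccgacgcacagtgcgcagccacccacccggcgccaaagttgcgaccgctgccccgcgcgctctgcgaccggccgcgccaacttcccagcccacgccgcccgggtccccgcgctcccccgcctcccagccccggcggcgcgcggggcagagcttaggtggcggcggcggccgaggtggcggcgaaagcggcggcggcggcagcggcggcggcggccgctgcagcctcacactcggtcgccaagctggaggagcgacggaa
Gjb6: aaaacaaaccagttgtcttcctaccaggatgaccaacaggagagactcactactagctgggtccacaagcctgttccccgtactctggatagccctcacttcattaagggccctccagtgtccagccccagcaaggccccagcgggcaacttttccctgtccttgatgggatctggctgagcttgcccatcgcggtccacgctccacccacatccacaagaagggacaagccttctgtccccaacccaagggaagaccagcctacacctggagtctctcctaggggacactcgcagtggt
The motifs were STAT (TTCNNNGAA), AP-1 (TGANTCA), the TATA box (TATAAA), CRE, NFI and the glucocorticoid response element, the last 3 searched as full palindromes, and no match overlapped another. Gfap held a STAT match at bases 249 to 257 of its window. Slc1a3 held a STAT match at bases 155 to 163 and a TATA box on the opposite strand at bases 90 to 95. The capitals in Gja1 are an AP-1 match at bases 232 to 238. Neither Slc4a4 nor Gjb6 had a match in these windows. Of 32851 RefSeq promoter windows of this length, 8.30% held STAT, 7.81% AP-1, 13.6% the TATA box, 1.79% CRE, 0.0365% NFI and 0.00913% the glucocorticoid response element.

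Libraries held 53624337 to 73586375 counts, of which the 10 members took 0.422% to 0.517%. Slc17a7, the vesicular glutamate transporter of cortical excitatory neurons, measured 1477 to 2089 CPM (counts scaled to a common library size), so every library carried cortical RNA. RNA of medium spiny neurons, which make up most of the striatum beneath the cortex, was raised in 4 libraries. Drd2, their dopamine D2 receptor, measured 17.5, 1.27 and 24.6 CPM in SNI/R-HNK mice, at most 1.72 CPM in SNI/saline mice, and 1.23, 44.0 and 41.8 CPM in Sham/saline mice, in the order of replicates 1, 2 and 3 as in all such lists here. It was thus raised in SNI/R-HNK replicates 1 and 3 and Sham/saline replicates 2 and 3, and in no SNI/saline library. The 15 striatal markers, all tested and none at 0, summed to 351 to 1134 CPM in SNI/R-HNK mice, 319 to 369 CPM in SNI/saline mice and 361 to 1789 CPM in Sham/saline mice. Over 12 mature oligodendrocyte markers the sums were 3476 to 6749.6 CPM in SNI/R-HNK mice, 3341 to 4728 CPM in SNI/saline mice and 3345 to 6985 CPM in Sham/saline mice, over 10 endothelial markers 291 to 315 CPM in SNI/R-HNK mice, 279.6 to 298 CPM in SNI/saline mice and 249 to 344 CPM in Sham/saline mice, and over 10 meningeal and perivascular fibroblast markers 43.8 to 60.8 CPM in SNI/R-HNK mice, 34.6 to 38.6 CPM in SNI/saline mice and 51.7 to 75.6 CPM in Sham/saline mice. Among 10 ependymal and choroid plexus markers 9 were tested, with sums of 7.71 to 11.1 CPM in SNI/R-HNK mice, 7.03 to 9.05 CPM in SNI/saline mice and 9.11 to 18.2 CPM in Sham/saline mice; Tmem212 and Otx2 read 0 in all SNI/saline libraries. Results that rest on the 4 libraries are also given without them, which leaves 1 SNI/R-HNK, 3 SNI/saline and 1 Sham/saline library and takes the spread from the SNI/saline mice alone, the lone libraries being assumed to vary like them.

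Levels within the set spanned a wide range. Per kilobase of exon, which allows genes to be compared, Glul, the glutamine synthetase, was highest at 387 ± 29.2 CPM per kilobase (mean ± SD over 9 libraries). Slc1a2, which encodes the main glutamate transporter of forebrain astrocytes, followed at 178 ± 9.91 CPM per kilobase, and Slc1a3, the related transporter GLAST, at 53.8 ± 6.21. S100b, a calcium-binding protein of astrocytes that oligodendrocytes also express, stood at 41.1 ± 5.70 CPM per kilobase. Below it came Gfap at 17.1 ± 7.03, Gja1 at 13.3 ± 1.93, Gjb6 at 12.2 ± 0.925, Aqp4 at 12.1 ± 2.12, Aldh1l1 at 10.3 ± 0.604 and Slc4a4 at 10.2 ± 2.11 CPM per kilobase. The ranges of Glul, Slc1a2 and Slc1a3 did not overlap, nor did those of S100b and Gfap, whereas Slc1a3 and S100b overlapped and were in the same order in 8 of 9 libraries. From Gfap down to Slc4a4 each gene overlapped with the next in this order. The first was higher in 8 of 9 libraries for Aqp4 over Aldh1l1, and in 5 to 7 of 9 for the other 4 pairs of neighbours. Gja1 and Aldh1l1, which are not neighbours, did not overlap. Exon length here is the union of annotated exons in GENCODE M21, and a gene whose main transcript is shorter than that union has its level understated.

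**Figure D1:**
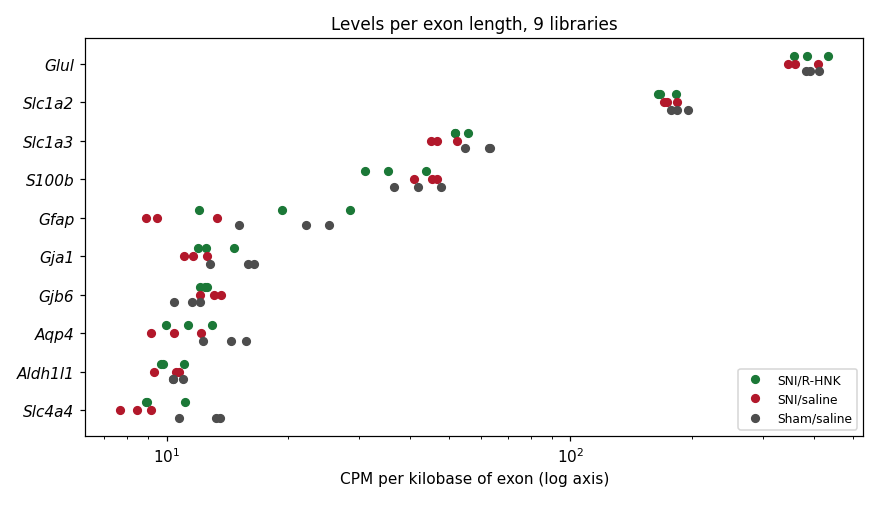
Level of each astrocyte gene in CPM per kilobase of exon (log axis), 1 point per library coloured by group, genes ordered by their mean. Glul and Slc1a2 stand apart at the top, and from Gfap to Slc4a4 each gene overlaps with the next one down.

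The members differed in how much they varied. The highest library was 3.19 times the lowest for Gfap, 1.76 times for Slc4a4 and 1.72 times for Aqp4, but only 1.19 times for Slc1a2 and 1.19 times for Aldh1l1. The SD of log2 CPM within groups was 0.459 for Gfap, against a median of 0.0965 over genes whose mean level lay within 0.5 log2 units of it. For Slc1a2 it was 0.0706 against 0.126, and for Aldh1l1 0.0931 against 0.103. Gfap therefore spread several times more between mice of one group than genes of like abundance, and Slc1a2 less.

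Nerve injury with saline was first set against sham surgery. Slc4a4, which encodes the electrogenic sodium bicarbonate cotransporter NBCe1 of astrocytes, fell, and it was the 1 member that passed the test at an adjusted p under 0.05 (edgeR, adjusted over all genes tested). The other 9 did not pass. Across all genes 1.07% passed, 0.515% as higher and 0.556% as lower. Of the 10 members 8 had a negative log2 fold change, with a median of -0.21, while the median over all tested genes was -0.016. The groups did not overlap for 6 members, 5 lower and 1 higher in SNI/saline mice, and 21.7% of all genes did not overlap, 10.9% in each direction. An unadjusted p under 0.05 was reached by the same 6, against 16.6% of all genes. In bulk tissue a lower value cannot be told apart between fewer astrocytes, less RNA per astrocyte and a different mix of tissue. Striatal markers were raised in Sham/saline replicates 2 and 3 and in no SNI/saline library.

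Slc4a4 moves bicarbonate with sodium across the astrocyte membrane and takes part in setting pH inside and around the cell. It measured 96.4, 96.6 and 120.0 CPM in SNI/R-HNK mice, 91.5, 83.2 and 99.1 CPM in SNI/saline mice, and 116, 147 and 144 CPM in Sham/saline mice. Every SNI/saline library lay below every Sham/saline library, and Sham/saline replicates 2 and 3 were the highest of the 9. The log2 fold change of SNI/saline over Sham/saline mice was -0.57 ± 0.11 (SE, 95% interval -0.81 to -0.33, adjusted p = 0.0307). In the 5 libraries with low striatal markers it was -0.34 (adjusted p = 0.418), with the striatal score as a covariate -0.35 (adjusted p = 0.285), and the adjusted p ran from 0.000189 to 0.418 over all settings. When 1 library was left out the call was lost without Sham/saline replicate 2 (0.133) or 3 (0.131), or SNI/saline replicate 1 (0.0993), 2 (0.166) or 3 (0.0728). SNI/R-HNK mice lay between, overlapping both groups: R-HNK over saline in injured mice gave 0.19 ± 0.11 (SE, adjusted p = 0.705), and SNI/R-HNK over Sham/saline mice -0.38 ± 0.11 (SE, adjusted p = 1). On GRCm38 the gene spans chr5:88886818-89239653 on the plus strand.

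Aqp4, the water channel of astrocyte endfeet on blood vessels, showed a like pattern without passing. It measured 62.2, 70.3 and 80.9 CPM in SNI/R-HNK mice, 75.8, 57.0 and 65.0 CPM in SNI/saline mice, and 76.9, 98.0 and 89.9 CPM in Sham/saline mice. All SNI/saline values were below all Sham/saline values, the closest being SNI/saline replicate 1 and Sham/saline replicate 1. The log2 fold change of SNI/saline over Sham/saline mice was -0.42 ± 0.12 (SE, 95% interval -0.69 to -0.15, adjusted p = 0.126). It passed without Sham/saline replicate 1 (-0.50, adjusted p = 0.0361), in DESeq2 and in limma-voom, and its adjusted p over all settings ran from 0.0275 to 0.772. In the 5 libraries with low striatal markers it was -0.22 (adjusted p = 0.772). For R-HNK over saline in injured mice it was 0.11 ± 0.12 (SE, adjusted p = 0.862).

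**Figure D2:**
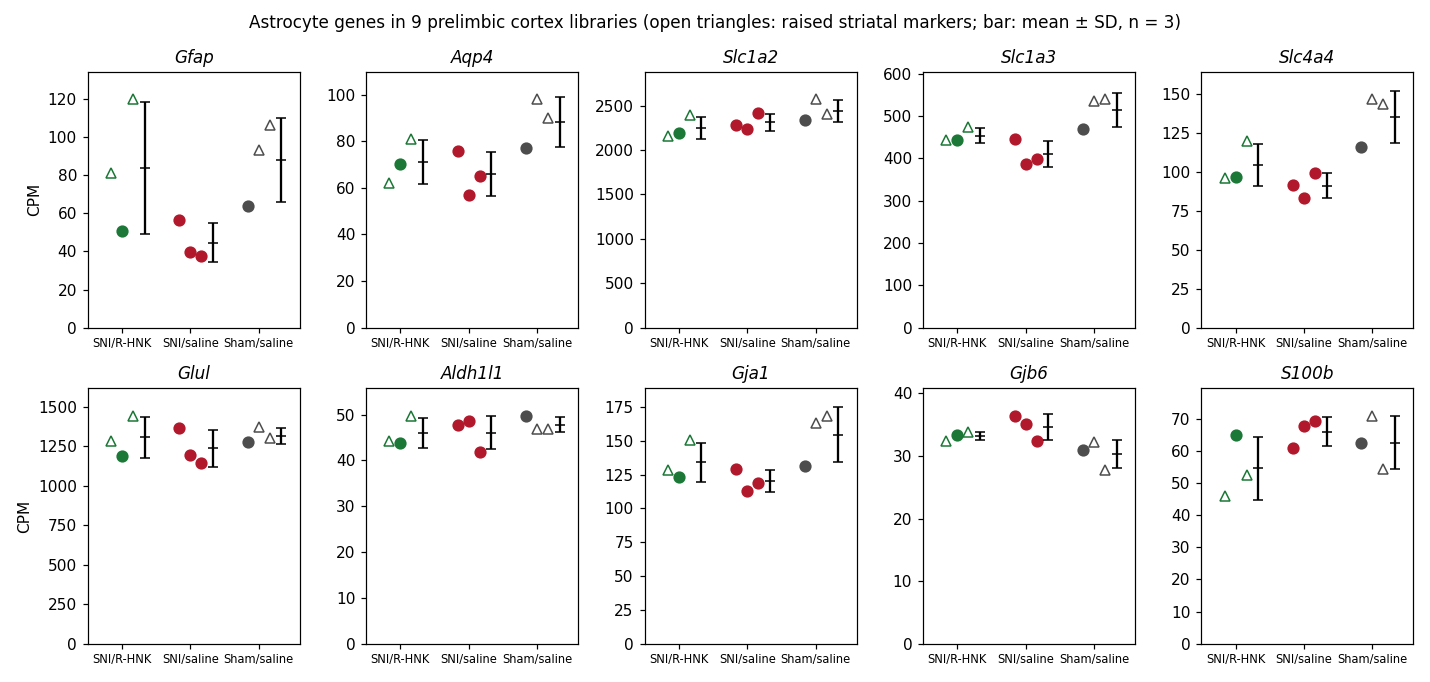
CPM of the 10 astrocyte genes in each library, by group, with each axis from 0; open triangles are the 4 libraries raised in striatal markers, and bars give the mean ± SD of 3 mice. The SNI/saline points lie below all Sham/saline points for Gfap, Aqp4, Slc1a3, Slc4a4 and Gja1 and above them for Gjb6.

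The genes of glutamate handling split. Slc1a3, whose product clears glutamate at synapses, measured 443, 443 and 475 CPM in SNI/R-HNK mice, 446, 385 and 399 CPM in SNI/saline mice, and 469, 536 and 539.7 CPM in Sham/saline mice. Its SNI/saline values lay below all Sham/saline values, with a log2 fold change of -0.33 ± 0.078 (SE, 95% interval -0.50 to -0.16, adjusted p = 0.0637). Without Sham/saline replicate 1 it passed (-0.38, adjusted p = 0.0109), as it did with no filter on low counts, in DESeq2 and in limma-voom. Over all settings its adjusted p ran from 0.00429 to 0.722, the upper bound without the 4 libraries, where the change was -0.19.

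Slc1a2 is the most abundant member by counts and measured 2158, 2190.0 and 2393 CPM in SNI/R-HNK mice, 2283, 2238 and 2417 CPM in SNI/saline mice, and 2335, 2572 and 2404 CPM in Sham/saline mice. The groups overlapped, and the log2 fold change of SNI/saline over Sham/saline mice was -0.076 ± 0.070 (SE, 95% interval -0.23 to 0.075, adjusted p = 0.636). Glul, which makes glutamine from the glutamate that Slc1a2 and Slc1a3 bring in, measured 1280.1, 1190.1 and 1443 CPM in SNI/R-HNK mice, 1365, 1195 and 1146 CPM in SNI/saline mice, and 1274, 1369 and 1302 CPM in Sham/saline mice. Its groups overlapped too, with -0.090 ± 0.086 (SE, 95% interval -0.28 to 0.10, adjusted p = 0.651). Slc1a2 shares 189 exon bases with the antisense gene Gm13872, and Glul shares 116 with Teddm2 on the other strand and 93 with Mir8114 on its own strand. The sources used here do not say whether counting used strand.

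Set within each library, the CPM ratio of Slc1a2 over Slc1a3 was 4.87, 4.95 and 5.04 in SNI/R-HNK mice, 5.12, 5.81 and 6.06 in SNI/saline mice and 4.98, 4.80 and 4.45 in Sham/saline mice. It was higher in all SNI/saline mice than in all mice of either other group. The mean log2 ratio of SNI/saline over Sham/saline mice differed by 0.25 (two-sided exact permutation test, p = 0.1), and that of SNI/R-HNK over SNI/saline mice by -0.19 (exact p = 0.1). With 3 mice against 3 the smallest p such a test can give is 0.1. Adjusted over the 9 ratio tests both were 0.180, and the gene pairs were chosen after their values were seen.

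The connexins of astrocyte gap junctions differed in sign. Gja1, which encodes the main astrocyte connexin, measured 128, 123 and 151 CPM in SNI/R-HNK mice, 129, 113 and 119 CPM in SNI/saline mice, and 131, 163 and 169 CPM in Sham/saline mice. SNI/saline mice lay below all Sham/saline mice, with a log2 fold change of -0.36 ± 0.10 (SE, 95% interval -0.58 to -0.14, adjusted p = 0.111). Without Sham/saline replicate 1 it was -0.45 and passed (adjusted p = 0.0130), as it did in DESeq2 and limma-voom. It was -0.12 in the 5 libraries with low striatal markers (adjusted p = 0.835), the top of its range over all settings, which began at 0.0130.

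Gjb6, the second connexin of grey matter astrocytes, measured 32.4, 33.3 and 33.8 CPM in SNI/R-HNK mice, 36.5, 35.1 and 32.4 CPM in SNI/saline mice, and 30.9, 32.3 and 27.8 CPM in Sham/saline mice. It was higher in all SNI/saline than in all Sham/saline mice, and also in all SNI/R-HNK than in all Sham/saline mice. Both comparisons use the same Sham/saline mice, so they are not independent. The log2 fold change was 0.19 ± 0.081 (SE, 95% interval 0.016 to 0.37, adjusted p = 0.257) for SNI/saline and 0.13 ± 0.081 (SE, 95% interval -0.047 to 0.30, adjusted p = 1) for SNI/R-HNK, each over Sham/saline mice, and neither passed. The value for SNI/saline mice was 0.17 in the 5 libraries with low striatal markers (adjusted p = 0.802). The ratio of Gja1 over Gjb6 in each library was 3.96, 3.69 and 4.46 in SNI/R-HNK mice, 3.54, 3.22 and 3.67 in SNI/saline mice and 4.25, 5.06 and 6.06 in Sham/saline mice. All SNI/saline ratios lay below all ratios of the other 6 mice. The closest were 3.67 in SNI/saline replicate 3 and 3.69 in SNI/R-HNK replicate 2. The mean log2 ratio differed by -0.55 for SNI/saline over Sham/saline mice and by 0.21 for SNI/R-HNK over SNI/saline mice (exact permutation p = 0.1 each, the smallest possible). The first separation was fixed in advance, since Gja1 was lower and Gjb6 higher in every SNI/saline than in every Sham/saline library. Its p is thus no separate support. Adjusted over the 9 ratio tests both were 0.18, and this pair too was chosen after its values were seen. Sham/saline replicate 1, which was not raised in striatal markers, had a ratio of 4.25.

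Gfap, the intermediate filament protein of astrocytes, had the widest spread. It measured 81.3, 50.7 and 120.0 CPM in SNI/R-HNK mice, 56.4, 39.9 and 37.6 CPM in SNI/saline mice, and 63.9, 93.4 and 107 CPM in Sham/saline mice. SNI/saline libraries were below all Sham/saline libraries, while SNI/R-HNK mice ran from near the SNI/saline level to the highest value of the 9. The log2 fold change of SNI/saline over Sham/saline mice was -0.98 ± 0.36 (SE, 95% interval -1.84 to -0.12, adjusted p = 0.248), and that of SNI/R-HNK over SNI/saline mice 0.91 ± 0.36 (SE, 95% interval 0.055 to 1.77, adjusted p = 0.643). Neither passed in any setting tried, with adjusted p from 0.0794 to 0.815 in the first comparison and from 0.248 to 1 in the second. The 4 libraries with the highest Gfap were the 4 raised in striatal markers, and the other 5 lay between 37.6 and 63.9 CPM. Without those 4 the first fold change was -0.51 and the second 0.18 (adjusted p = 0.651 and 1). With the striatal score as a covariate they were -0.31 and 0.39 (adjusted p = 0.815 and 1). Without SNI/R-HNK replicate 3 alone the second was 0.57 (adjusted p = 0.999).

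**Figure D3:**
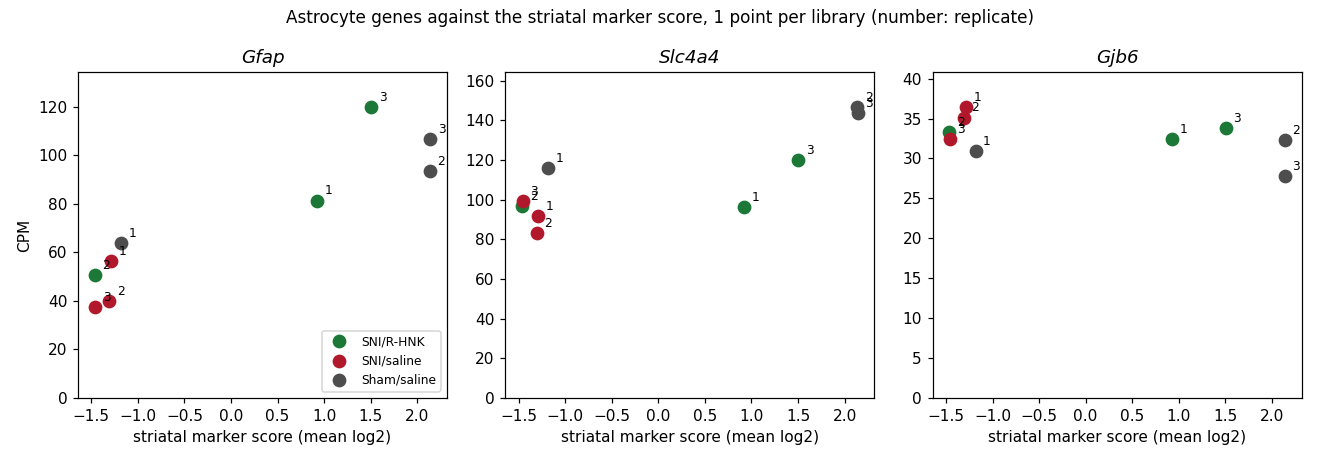
CPM of Gfap, Slc4a4 and Gjb6 against the striatal marker score (mean over 15 markers of log2 CPM relative to the mean of the 9 libraries), 1 point per library, coloured by group and numbered by replicate. Gfap is highest in the 4 libraries on the right, Slc4a4 is highest in Sham/saline replicates 2 and 3, and Gjb6 has its lowest value in Sham/saline replicate 3.

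Aldh1l1, a folate enzyme used as a general astrocyte marker, measured 44.3, 43.9 and 49.8 CPM in SNI/R-HNK mice, 47.7, 48.6 and 41.9 CPM in SNI/saline mice, and 49.7, 46.8 and 46.9 CPM in Sham/saline mice. The groups overlapped, with -0.054 ± 0.080 (SE, 95% interval -0.23 to 0.12, adjusted p = 0.788) for SNI/saline over Sham/saline mice. It shares 499 exon bases with the antisense gene Gm15756 and 105 with Gm45901 on its own strand. The ratio of Gfap over Aldh1l1 was 1.84, 1.16 and 2.41 in SNI/R-HNK mice. It was 1.18, 0.821 and 0.896 in SNI/saline mice and 1.29, 1.99 and 2.27 in Sham/saline mice. All SNI/saline ratios were below all Sham/saline ratios (exact permutation p = 0.1, the smallest possible). Gfap alone already separated these groups. Adjusted over the 9 ratio tests the p was 0.18, and this pair too was chosen after its values were seen. The highest ratios were those of SNI/R-HNK replicates 1 and 3 and Sham/saline replicates 2 and 3, all raised in striatal markers. Sham/saline replicate 1 (1.29) and SNI/R-HNK replicate 2 (1.16) lay close to SNI/saline replicate 1 (1.18). S100b measured 45.9, 65.0 and 52.6 CPM in SNI/R-HNK mice, 60.9, 67.5 and 69.3 CPM in SNI/saline mice, and 62.3, 70.9 and 54.3 CPM in Sham/saline mice. Its log2 fold change was 0.076 ± 0.12 (SE, 95% interval -0.20 to 0.35, adjusted p = 0.811) for SNI/saline over Sham/saline mice and -0.27 ± 0.13 (SE, 95% interval -0.55 to -0.0025, adjusted p = 0.662) for SNI/R-HNK over SNI/saline mice. SNI/R-HNK replicates 1 and 3, both raised in striatal markers, were the lowest S100b values, whereas Gfap was high in both. Of the other libraries raised in striatal markers, Sham/saline replicate 3 was next lowest in S100b (54.3 CPM). Sham/saline replicate 2 was the highest of all 9 libraries (70.9 CPM). The second S100b fold change was -0.025 (adjusted p = 1) in the 5 libraries with low striatal markers, -0.19 (adjusted p = 1) with the striatal covariate and -0.16 (adjusted p = 0.952) without SNI/R-HNK replicate 1.

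R-HNK was next set against saline in injured mice. No member passed in edgeR (adjusted p from 0.643 to 0.997), and none passed in DESeq2 or limma-voom. Across all genes 0.119% passed, 0.0368% as higher and 0.0827% as lower. An unadjusted p under 0.05 was reached by 2 members, Gfap and S100b, with 7.47% of all genes reaching it. All 10 members overlapped between the groups, while 13.7% of all genes did not, 7.15% being higher and 6.59% lower. Of the members 6 were positive and 4 negative, with a median of 0.094 beside 0.0070 over all genes. In the 5 libraries with low striatal markers 5 were positive and 5 negative, with a median of 0.00037. With the striatal score as a covariate 4 were positive and 6 negative, with a median of -0.0025. Besides those given above, the log2 fold changes were 0.15 ± 0.077 (SE, 95% interval -0.022 to 0.31, adjusted p = 0.698) for Slc1a3, 0.15 ± 0.10 (SE, 95% interval -0.067 to 0.38, adjusted p = 0.745) for Gja1, 0.079 ± 0.086 (SE, 95% interval -0.11 to 0.26, adjusted p = 0.856) for Glul, -0.042 ± 0.070 (SE, 95% interval -0.19 to 0.11, adjusted p = 0.915) for Slc1a2, -0.064 ± 0.081 (SE, 95% interval -0.24 to 0.11, adjusted p = 0.882) for Gjb6 and -0.0024 ± 0.080 (SE, 95% interval -0.18 to 0.17, adjusted p = 0.997) for Aldh1l1. The first and second comparisons share the SNI/saline mice, so opposite signs in them are not independent.

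Against Sham/saline mice, SNI/R-HNK mice also showed no member that passed (edgeR, adjusted p rounding to 1 for each member; none in DESeq2 or limma-voom), where 0.00459% of all genes did. An unadjusted p under 0.05 was reached by 3 members, Slc4a4, Aqp4 and Slc1a3, beside 3.53% of all genes. Groups did not overlap for 1 member, Gjb6, and for 8.85% of all genes, 4.43% being higher and 4.42% lower. Of the 10, 9 were negative, with a median of -0.15 beside -0.0063 over all genes. This was 8 of 10 and -0.094 in the 5 libraries with low striatal markers, and 7 of 10 and -0.12 with the striatal covariate. The values were -0.38 ± 0.11 (SE, 95% interval -0.61 to -0.14, adjusted p = 1) for Slc4a4, -0.31 ± 0.12 (SE, 95% interval -0.58 to -0.040, adjusted p = 1) for Aqp4, -0.18 ± 0.077 (SE, 95% interval -0.35 to -0.015, adjusted p = 1) for Slc1a3 and -0.067 ± 0.35 (SE, 95% interval -0.91 to 0.78, adjusted p = 1) for Gfap. For Gja1 the value was -0.20 ± 0.10 (SE, 95% interval -0.43 to 0.017, adjusted p = 1), for Slc1a2 -0.12 ± 0.070 (SE, 95% interval -0.27 to 0.033, adjusted p = 1), for S100b -0.20 ± 0.13 (SE, 95% interval -0.47 to 0.074, adjusted p = 1), for Aldh1l1 -0.056 ± 0.080 (SE, 95% interval -0.23 to 0.12, adjusted p = 1) and for Glul -0.011 ± 0.086 (SE, 95% interval -0.20 to 0.17, adjusted p = 1). In the test for any difference among the 3 groups no member passed in edgeR. The smallest adjusted p was that of Slc4a4 (0.0917), then Slc1a3 (0.192). An unadjusted p under 0.05 was reached by 4 members, Slc4a4, Slc1a3, Gja1 and Aqp4, against 10.9% of all genes; 0.381% of all genes passed. In DESeq2 and in limma-voom 2 members passed that test.

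**Figure D4:**
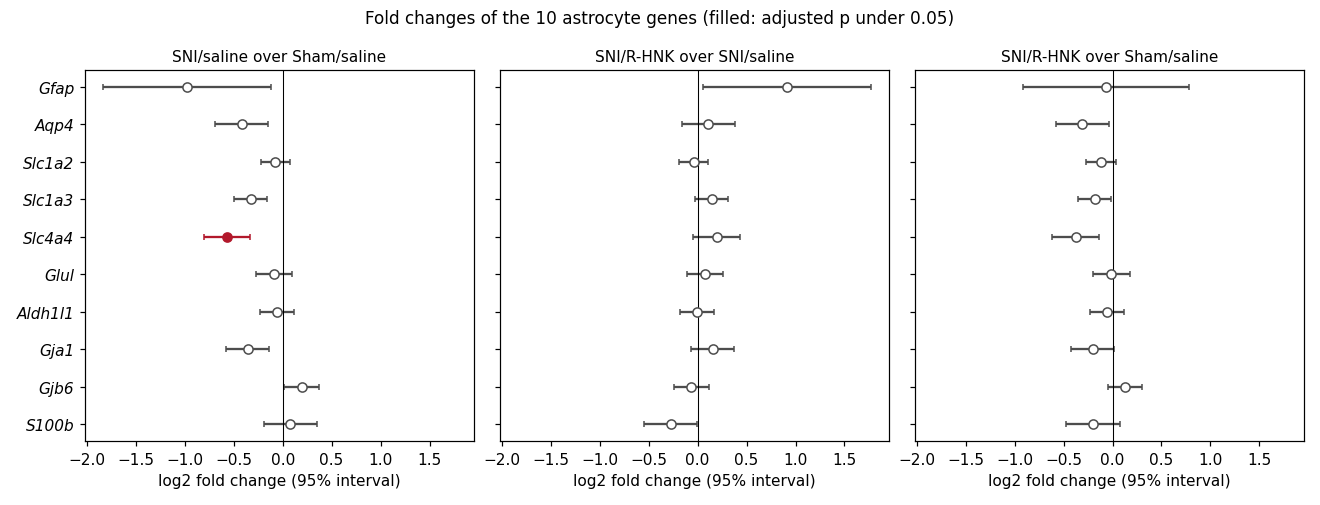
Log2 fold change of each astrocyte gene in the 3 comparisons, with 95% intervals from the edgeR fit; the filled point passed at an adjusted p under 0.05. Slc4a4 passed for SNI/saline over Sham/saline mice, Gfap has the widest intervals, and Gjb6 lies right of 0 in both comparisons against Sham/saline mice, which share those mice.

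Across libraries Aqp4, Slc1a3, Slc4a4 and Gja1 deviated together. Relative to the mean of the 9 libraries, Sham/saline replicate 2 was higher by 0.40 for Aqp4, 0.23 for Slc1a3, 0.44 for Slc4a4 and 0.27 for Gja1 on the log2 scale. In SNI/saline replicate 2 the same genes stood at -0.38, -0.25, -0.38 and -0.25. Gfap had the same signs in these libraries, 0.48 in Sham/saline replicate 2 and -0.74 in SNI/saline replicate 2. SNI/R-HNK replicate 3 was above the mean for 9 of 10 members, all but S100b, and Sham/saline replicate 2 for all but Gjb6 (-0.016). In the 5 libraries with low striatal markers, 8 of 10 members were negative for SNI/saline over Sham/saline mice, with a median of -0.11 and none passing. With the striatal score as a covariate the numbers were 8 of 10 and -0.094, again with none passing. Oligodendrocyte precursor, oligodendrocyte, endothelial, microglial and ependymal markers were also high in Sham/saline replicates 2 and 3. In SNI/R-HNK replicate 3 all of these but the ependymal markers were above the mean of the 9 libraries, with 0.46 for oligodendrocytes. In SNI/R-HNK replicate 1 all but the microglial markers were above it, with 0.60 for ependymal markers. Fibroblast markers were high in Sham/saline replicate 3 and below the mean of the 9 libraries in replicate 2. Excitatory neuron markers were lowest in Sham/saline replicates 2 and 3. Their score was -0.0025, 0.057 and -0.090 in SNI/R-HNK mice, 0.16, 0.18 and 0.17 in SNI/saline mice and 0.067, -0.23 and -0.31 in Sham/saline mice (mean log2 CPM of 10 markers relative to the 9 libraries). It was higher in every SNI/saline than in every Sham/saline library, Sham/saline replicate 1 included. The inhibitory interneuron score, over 10 markers, was -0.11, 0.10 and 0.021 in SNI/R-HNK mice, -0.071, -0.042 and -0.054 in SNI/saline mice and 0.033, 0.16 and -0.038 in Sham/saline mice. It was lower in every SNI/saline than in every Sham/saline library, by a narrow margin. The closest were -0.042 in SNI/saline replicate 2 and -0.038 in Sham/saline replicate 3. The part of these markers in the members' values was not tested.

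**Figure D5:**
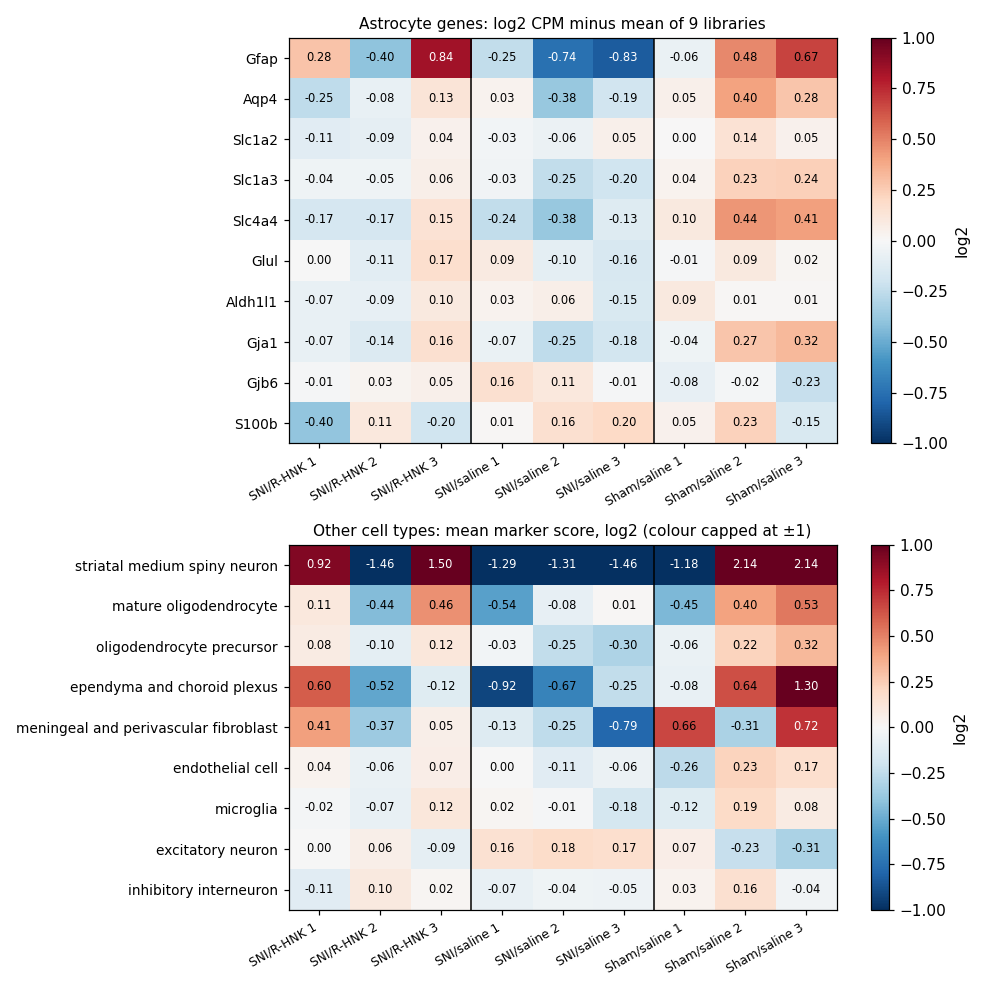
Log2 CPM of each astrocyte gene relative to its mean over 9 libraries (top), and mean marker scores of other cell types on the same log2 scale with colour capped at ±1 (bottom), by library. Gfap, Aqp4, Slc1a3, Slc4a4 and Gja1 are red in Sham/saline replicates 2 and 3, the libraries with the highest striatal scores, and blue in SNI/saline replicates 2 and 3.

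Other genes were read for comparison in lists drawn up around astrocyte functions, which hold none of the members. Of 26 further astrocyte identity genes none passed between SNI/saline and Sham/saline mice in edgeR. Of these, 12 had an unadjusted p under 0.05, against 16.6% of all genes, 21 were negative and the median was -0.15. With only the 5 libraries low in striatal markers 17 of these were negative, with a median of -0.094. Those with the smallest p were Gpam, a glycerolipid enzyme (-0.31 ± 0.078 SE, adjusted p = 0.0737), Gpc5, a glypican (-0.29 ± 0.082 SE, adjusted p = 0.109), and Plpp3, a lipid phosphatase (-0.29 ± 0.087 SE, adjusted p = 0.131). For R-HNK over saline in injured mice 21 of 26 were positive, with a median of 0.087 and none passing.

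Among 13 genes of glutamate, GABA and glutamine handling Slc6a11, which encodes a carrier that takes GABA up into astrocytes, fell in SNI/saline mice. The other 12 did not pass. Slc6a11 measured 139, 145 and 154 CPM in SNI/R-HNK mice, 154, 117 and 122 CPM in SNI/saline mice, and 186, 190.4 and 172 CPM in Sham/saline mice. SNI/saline replicate 1 was the only library of that group above any SNI/R-HNK library, and all SNI/saline libraries lay below all Sham/saline libraries. The log2 fold change was -0.48 ± 0.094 (SE, adjusted p = 0.0313), and it was -0.50 (adjusted p = 0.249) in the 5 libraries with low striatal markers. The estimate was thus of like size without them and did not pass.

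Of 10 genes of the complex that anchors Aqp4 at endfeet Sntb1, a syntrophin, fell (1.83 ± 0.0863 CPM in SNI/saline mice and 3.82 ± 0.509 CPM in Sham/saline mice, -1.06 ± 0.23 SE, adjusted p = 0.0478) and 9 did not pass. Of 12 transcription factors of astrocytes or their precursors Otx1, which is also a factor of deep layer cortical neurons, rose (9.45 ± 1.04 CPM in SNI/saline mice and 5.36 ± 0.939 CPM in Sham/saline mice, 0.82 ± 0.16 SE, adjusted p = 0.0356) and 11 did not pass. With the 4 libraries left out the values were -0.85 (adjusted p = 0.528) for Sntb1 and 0.70 (adjusted p = 0.364) for Otx1. Of the 9 fits that left out 1 library Slc6a11 passed in 4, Sntb1 in 3 and Otx1 in 4. All 3 calls were lost without Sham/saline replicate 2 or 3, SNI/saline replicate 2 or 3, or SNI/R-HNK replicate 1, and that of Sntb1 also without SNI/saline replicate 1. Among these fits the adjusted p reached 0.171 for Slc6a11, 0.197 for Sntb1 and 0.161 for Otx1. In a fit of the 2 groups alone it was 0.0518 for Slc6a11, 0.0483 for Sntb1 and 0.0522 for Otx1.

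No gene of the remaining lists passed in edgeR. In the list of potassium, water and acid-base transport 10 of 14 were negative (median -0.11, 3 with an unadjusted p under 0.05, against 16.6% of all genes). Among these were Slc12a2, a chloride cotransporter (-0.34 ± 0.12 SE, adjusted p = 0.197), and Kcnk1, a potassium channel (0.20 ± 0.093 SE, adjusted p = 0.296). Of 10 other connexin and gap junction genes 7 were negative (median -0.16), led by Gjb2, a connexin also found in meningeal cells (1.62 ± 0.793 CPM in SNI/saline mice and 3.40 ± 0.539 CPM in Sham/saline mice, -1.07 ± 0.30 SE, adjusted p = 0.111). Panx2, a pannexin, was next by p (0.12 ± 0.067 SE, adjusted p = 0.412). With the 4 libraries left out this list's median was 0.17.

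Genes that mark reactive astrocytes had no shared direction. Of 18 in this list 11 were negative and 7 positive for SNI/saline over Sham/saline mice, with a median of -0.12. There were 5 at an unadjusted p under 0.05, against 16.6% of all genes. Vim, a filament protein that partners Gfap, measured 37.7, 23.2 and 31.1 CPM in SNI/R-HNK mice, 28.1, 18.0 and 17.6 CPM in SNI/saline mice, and 30.7, 29.1 and 38.0 CPM in Sham/saline mice, with -0.62 ± 0.22 (SE, adjusted p = 0.217). Serpina3n, a serine protease inhibitor that is strongly induced in reactive astrocytes, had the opposite sign (12.2 ± 1.07 CPM in SNI/saline mice and 9.88 ± 0.606 CPM in Sham/saline mice, 0.31 ± 0.12 SE, adjusted p = 0.216). Cd109 was low in all groups (0.0995 ± 0.0583 CPM in SNI/saline mice and 0.508 ± 0.259 CPM in Sham/saline mice, -2.33 ± 0.72 SE, adjusted p = 0.136). In the list of glucose, glycogen and lactate handling 9 of 12 were positive, with a median of 0.092. Ldha, the lactate dehydrogenase subunit that favours lactate, came nearest to passing (369.6 ± 24.8 CPM in SNI/saline mice and 301 ± 9.52 CPM in Sham/saline mice, 0.30 ± 0.065 SE, adjusted p = 0.0513), and Ppp1r3c, a glycogen targeting subunit, gave 0.29 ± 0.11 (SE, adjusted p = 0.188). Pfkfb3, a regulator of glycolysis, gave 0.16 ± 0.076 (SE, adjusted p = 0.309) for SNI/saline over Sham/saline mice and -0.26 ± 0.076 (SE, adjusted p = 0.406) for SNI/R-HNK over SNI/saline mice.

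The genes most like the members were read off as the highest Pearson r of log2 CPM over the 9 libraries among 10973 genes whose log2 CPM averaged 3 or more. These are the top of many, over libraries that share group and striatal content, so they are a description with no p. For the mean of the 10 members they were Gdpd5 (0.987), Sptb (0.980), Gpam (0.970), Gldc (0.968) and Cpne2 (0.965). For single members they were Zfp775 for Gfap (0.990), Cgnl1 for Aqp4 (0.977), Abcc9 for Slc1a2 (0.941), Lhfpl3 for Slc1a3 (0.983) and Rhobtb3 for Slc4a4 (0.982). For the others they were Abtb2 for Glul (0.969), Dazap1 for Aldh1l1 (0.955), Ptpn13 for Gja1 (0.982), Fam171a2 for Gjb6 (0.967) and Rorb for S100b (0.959).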

How the data were processed

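The authors deposited 1 table of expected counts, whole numbers of reads estimated for each gene symbol and not normalized, with a column for each mouse. The submitters' processing notes name HISAT2 2.0.5, featureCounts 1.5.0-p3 and mm10, while the table's name gives StringTie. The sources used here do not give the strand setting.

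Genes kept by filterByExpr (21765, with 99.96% of counts) were scaled by TMM and fitted with edgeR 4.0.16 (robust quasi-likelihood, all 9 libraries, 1 mean per group) in R 4.3.3, with Benjamini-Hochberg adjustment over all genes and a threshold of 0.05. CPM use TMM-scaled library sizes. Log2 CPM have a prior count of 2. The SE and 95% interval come from the test statistic and its degrees of freedom. The fit was tested on simulated counts. Alternatives included limma 3.58.1 and DESeq2 1.42.0. Lines with a repeated symbol (216) were kept apart.

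No 2 libraries of a group agreed within sampling noise (chi-square per degree of freedom 15.0 to 45.2). Members, lists and the 2 striatal settings were chosen with earlier results of these data known. Every member is named; from each other list every gene that passed in any comparison is named, or else the 3 with the smallest p over the comparisons, of which some are not reported here.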

Additional observations from a re-analysis of the deposited data

How the results depend on the processing

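For SNI/saline over Sham/saline mice 1 member passed, and this was 4 in DESeq2, 4 in limma-voom, 2 without the filter, 0 with the striatal covariate, 0 in the 5 libraries with low striatal markers, and 0 to 4 when 1 library was left out. For any difference among the 3 groups no member passed, against 2 in DESeq2, 2 in limma-voom and 0 to 3 when 1 library was left out, with 3 without Sham/saline replicate 1. In the other comparisons no member passed in any setting. Counts over all genes varied more: 233 passed for SNI/saline over Sham/saline mice (60 to 1185 over the settings), 26 for SNI/R-HNK over SNI/saline (7 to 140), 1 for SNI/R-HNK over Sham/saline (0 to 25) and 83 for any difference (21 to 679). Neither relative log expression nor upper quartile factors changed a count of members. Of 540 member values recomputed, 502 kept sign and side of the threshold and 21 changed sign, none of them passing; the cause was not tested. With the striatal covariate Glul became 0.019 and S100b -0.059 for SNI/saline over Sham/saline. Glul became -0.00067 and Gja1 -0.0042 for SNI/R-HNK over SNI/saline, and Gfap 0.080 and Glul 0.018 for SNI/R-HNK over Sham/saline. Without the 4 libraries Glul became -0.058 for SNI/R-HNK over SNI/saline and S100b 0.062 for SNI/R-HNK over Sham/saline. Aldh1l1 for SNI/R-HNK over SNI/saline became 0.0093 with upper quartile scaling and 0.00095 without the filter. Leaving out 1 library, Aldh1l1 ran from -0.094 to 0.014 and S100b from -0.013 to 0.18 for SNI/saline over Sham/saline, Aldh1l1 from -0.065 to 0.038 for SNI/R-HNK over SNI/saline, and Gfap from -0.41 to 0.20 and Glul from -0.085 to 0.056 for SNI/R-HNK over Sham/saline. No pairing of mice by replicate number was seen: deviations of same-numbered libraries correlated from -0.104 to 0.0917 across genes. For differently numbered libraries of different groups the range was -0.163 to 0.175. These values do not decide whether the mice were paired. With the replicate number as a block Slc4a4 gave -0.57 (adjusted p = 0.0254), 1 member passed, and no member's call changed. Of the genes in the other lists, Slc6a11, Sntb1 and Otx1 no longer passed under the block (adjusted p = 0.0584, 0.0783 and 0.0505).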
